A study of Mus musculus with 6 samples.

Results

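The genes described here are 34 genes of protein folding in the endoplasmic reticulum (ER) and of the unfolded protein response (UPR), measured by bulk RNA-seq in natural killer (NK) cells of mouse spleen. They were taken by symbol from a deposited count table of 55291 gene names. The list was chosen with earlier results of these data known. It holds 4 genes for the UPR sensors and the transcription factor XBP1, 9 ER chaperones and their cofactors, and 4 disulfide isomerases. The others are 11 genes of ER-associated degradation and 6 genes of the translocon. All 34 were in the table, and all 34 passed a filter on low counts that left 16480 genes for testing. The libraries come from 3 wild-type mice (WT 1, 2 and 3) and 3 mice whose heat shock factor 1 (HSF1) carries alanine in place of serine at positions 303 and 307 (S303/7A 5, 6 and 7). Each library is 1 mouse, and every mouse was kept at steady state, with no treatment named. Spleen cells were enriched with DX5 beads and sorted as CD49b+, CD3e- cells. The labels do not say whether the S303/7A mice carry 1 or both copies of the mutant gene, nor the age, sex or strain of any mouse.

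Proteins that enter the secretory pathway are threaded into the ER through the Sec61 channel, folded there by chaperones and disulfide isomerases, and, where folding fails, drawn back into the cytosol and degraded. The membrane sensors IRE1 (gene Ern1), ATF6 and PERK (gene Eif2ak3) detect unfolded protein in the ER, and their signals raise the transcription of chaperone and degradation genes. HSF1 drives the corresponding response of the cytosol, and the comparison asks whether resting NK cells with the mutant factor, called HSF1-enhanced in the series text, differ in the ER arm of protein quality control. NK cells carry a load on this compartment because perforin, granzymes, cytokines and surface receptors are all made there.

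The ER arm of the UPR acts on promoters through short elements, and the promoters that hold them are shown first because these elements are the textbook binding sites of ATF6 and XBP1. RefSeq promoter windows (GRCm38.p6, 250 bases before to 50 after the annotated start) were matched for 27 of the 34 genes. The ER stress response element, CCAAT and CCACG with 9 bases between on either strand, was found in 7 of these 27 genes and in 0.119% of all 32851 windows of that length. The second form, ATTGG and CCACG with 1 base between, was found in Herpud1 and in 0.0365% of all windows, and the UPR element, TGACGTGG, in Vcp and in 0.676% of windows. No window of the 27 genes held the heat shock element searched, GAA, TTC and GAA with 2 bases between each, the motif of HSF1, which 0.603% of all windows held. The 4 searches were strict matches of these letters, the motifs do not overlap each other in these genes, and a match is a description of sequence only. In the stretches below, capitals mark the element, in the second form for Herpud1, and each runs 5′ to 3′ on the strand of its gene.
Hspa5: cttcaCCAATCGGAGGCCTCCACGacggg
Hsp90b1: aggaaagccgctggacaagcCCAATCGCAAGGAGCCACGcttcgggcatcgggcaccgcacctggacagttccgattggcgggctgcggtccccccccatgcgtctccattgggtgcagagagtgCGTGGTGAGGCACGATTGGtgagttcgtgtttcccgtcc
Calr: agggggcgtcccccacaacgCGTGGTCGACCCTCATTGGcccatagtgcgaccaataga
Canx: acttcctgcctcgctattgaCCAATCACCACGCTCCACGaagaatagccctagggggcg
Creld2: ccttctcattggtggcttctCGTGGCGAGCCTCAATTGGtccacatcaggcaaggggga
Pdia6: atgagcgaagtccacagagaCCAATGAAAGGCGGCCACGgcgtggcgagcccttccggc
Syvn1: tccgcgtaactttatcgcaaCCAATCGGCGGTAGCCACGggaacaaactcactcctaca
Herpud1: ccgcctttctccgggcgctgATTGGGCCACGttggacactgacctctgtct

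The stretch of Hspa5 is chr2:34772020-34772048 (+ strand), inside an exon that GENCODE M21 annotates for an upstream start of the same gene. Hsp90b1 holds 2 elements, in chr10:86705513-86705676 (- strand), 232 to 69 bases before its start. The other stretches lie in no annotated exon, at chr8:84847055-84847113 (-) for Calr, chr11:50325780-50325838 (-) for Canx, chr15:88819500-88819558 (+) for Creld2, chr12:17266471-17266529 (+) for Pdia6, chr19:6046512-6046570 (+) for Syvn1 and chr8:94386357-94386407 (+) for Herpud1. These 8 genes are chaperones (Hspa5, Hsp90b1, Calr, Canx and Creld2), a disulfide isomerase (Pdia6) and ER-associated degradation genes (Syvn1 and Herpud1), so none of the translocon genes with a window held either form of the element.

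Levels are given as TMM-scaled read counts relative to library size (CPM), the log2 fold is of S303/7A over WT, and a gene is called when its adjusted p is under 0.05 in edgeR's quasi-likelihood test over all 16480 genes. Of the 34 genes, 0 were called higher and 0 lower, against 0.133% and 0.231% of all tested genes (0.364% in either direction). Before adjustment 5 genes had p under 0.05, or 14.7% of the 34 against 9.68% of all tested genes: 2 were higher (Eif2ak3 and Atf6, background 4.21%) and 3 lower (Calr, Hyou1 and Pdia6, background 5.47%). DESeq2 and limma-voom also called 0 of the 34, with 5 and 4 at an unadjusted p under 0.05. The libraries of the genotypes did not overlap for 5 genes, Eif2ak3 and Herpud1 on the higher side (background 7.64%) and Calr, Hyou1 and Pdia6 on the lower side (background 8.37%), against 16.0% of all tested genes in either direction. The median log2 fold was 0.02 over the 34 genes, with 18 above 0 and 16 below, and 0.01 over all tested genes.

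The intervals bound how large a difference could have gone unseen. For 30 of the 34 genes the 95% interval of the fold, taken gene by gene, lay within 1.5-fold in both directions, as it did for 40.4% of all tested genes. Ern1, Hyou1, Eif2ak3 and Edem1 were the exceptions, and the interval lay within 2-fold for all but Eif2ak3 and Edem1 (57.4% of all tested genes). The median size of the log2 fold, regardless of sign, was 0.08 for the 34 genes and 0.18 over all tested genes. Counts behind these values ranged from 198 for Eif2ak3 in its lowest library to 55765 for Hspa5 in its highest. In simulated counts of the same design, drawn gene by gene from the fitted means and dispersions, 95.6% of such intervals held the true value. The simulation held no shift shared by many genes of 1 library, so it cannot show how the intervals fare under such a shift. The test recovered 6 of 50 genes changed by 1.5-fold and 34 of 50 changed by 2-fold. The changed genes were drawn from tested genes above a low level and not from the 34 alone, so these rates are not those of the 34 genes.

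**Figure D1:**
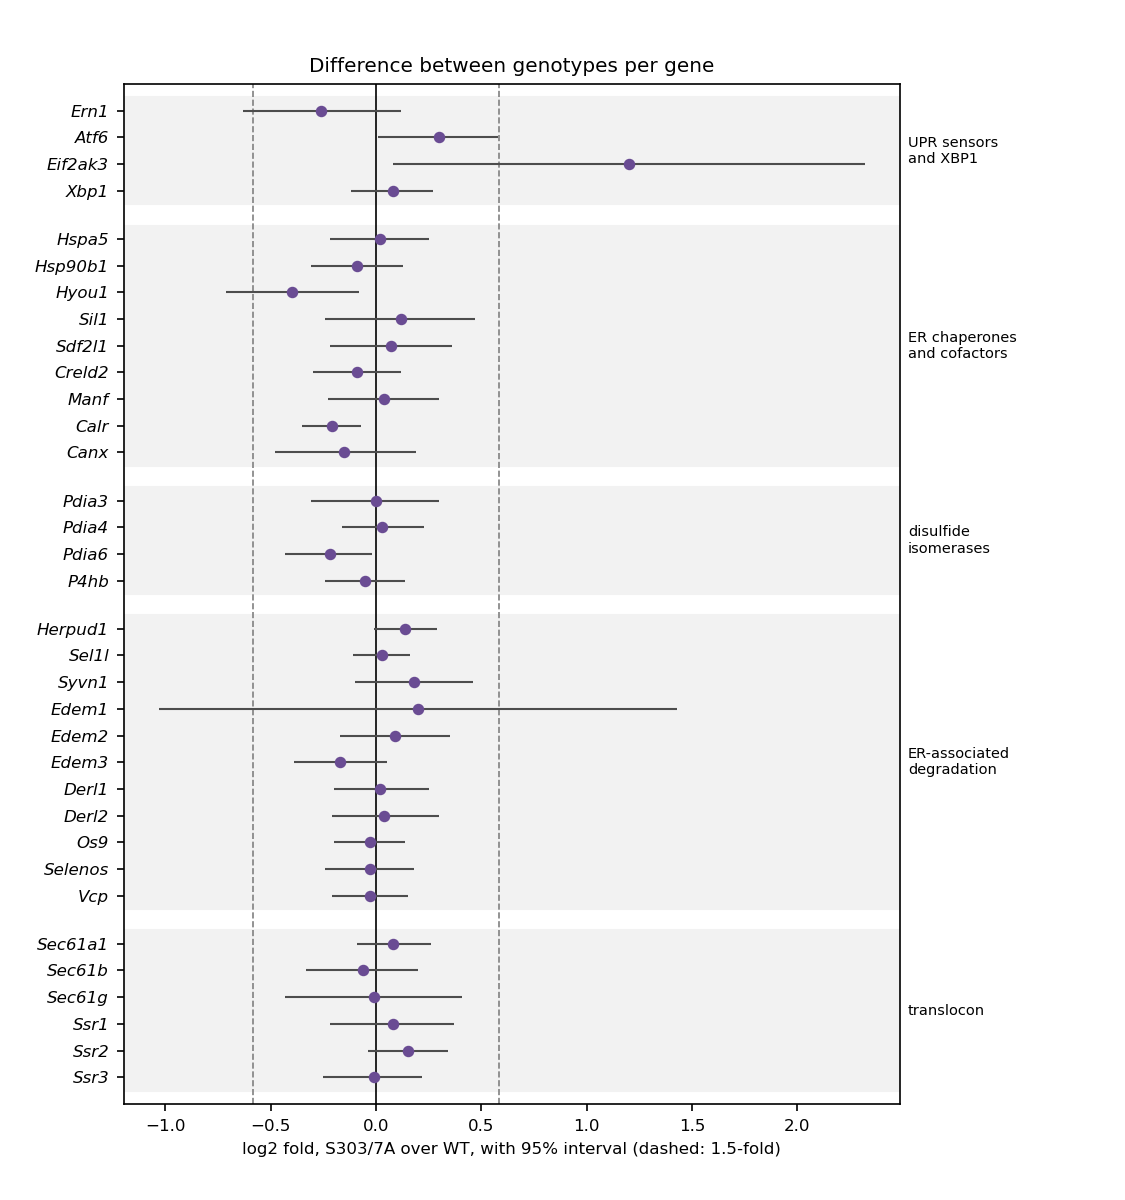
Log2 fold of S303/7A over WT for each of the 34 genes (point) with its 95% interval (line), grouped by role, with dashed lines at 1.5-fold. Intervals of 30 genes lie between the dashed lines, and Eif2ak3 and Edem1 have the widest.

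Library totals ranged from 53845572 to 72736406 counts for WT mice and 43189163 to 47248039 for S303/7A mice, so the mutant libraries were shallower throughout. The 34 genes took from 0.712% to 0.83% of the counts. The NK identity of the libraries was checked with 12 markers, which summed to between 27227 and 31588 CPM, with 8 folds above 0 and 4 below. Ncr1 ran from 2139.9 to 2530.4 CPM and Eomes from 140 to 717 CPM, and 1 marker, Klrb1c, was called lower (log2 fold -0.54). Ncr1, Klrk1 and Fcer1g lay higher in S303/7A without overlap (log2 folds 0.14, 0.57 and 0.37) and were not called. These were 3 of the 12 markers, against 7.64% of all tested genes. Hsf1 itself was at 83.2, 104 and 108 CPM across WT and at 67.0, 42.2 and 76.9 CPM across S303/7A, and was not called; counts do not show the exchanged serines, so they do not check the labels. Platelet markers summed to 331 to 371 CPM across WT and 175 to 225 in S303/7A, with 11 of 11 tested markers below 0 and 1, Vwf, called lower. Basophil markers summed to 589.8 to 1139.7 CPM and 400.5 to 488 CPM, with 11 of 12 below 0 and 1, Ms4a2, called lower. The sums for dendritic cells (590.3 to 811 against 371 to 546 CPM), neutrophils (57.4 to 99.7 against 36.7 to 42.1 CPM) and monocytes and macrophages (909 to 947 against 807 to 890 CPM) also lay lower in S303/7A without overlap, with 0 called. The largest part of each sum came from 1 gene: Itgax (mean 611 and 335 CPM), Cxcr2 (46.2 and 25.9 CPM) and Ccr2 (676 and 631 CPM). Of the tested markers, 5 of 8 dendritic folds were above 0, as were 2 of 7 neutrophil folds and 3 of 11 monocyte and macrophage folds. The part of these cells in the folds of the ER genes was not tested. Fewer cells of a type, less RNA per cell and a change of these transcripts within the NK cells cannot be told apart in bulk RNA.

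The level of a gene was set against that of other genes only per length, as mean CPM per kb of exon annotated in GENCODE M21. In WT the highest of the 34 were Pdia3 at 249 ± 9.17, Os9 at 201 ± 15.1 and Hspa5 at 195 ± 13.3 CPM per kb (SD, n = 3), and Os9 and Hspa5 lay within each other's spread, as did P4hb and Calr after them. P4hb (168 ± 11.1), Calr (165 ± 8.39), Hsp90b1 (150.3 ± 2.94), Pdia4 (143 ± 11.3), Herpud1 (131 ± 6.19) and Canx (108 ± 7.04) followed, and no other gene of the 34 exceeded 100 CPM per kb. Herpud1 and Os9 are degradation genes, and the remaining 7 of these 9 are chaperones and isomerases. The sensors were far lower: Ern1 at 15.8 ± 3.56, Atf6 at 7.02 ± 0.811 and Eif2ak3 at 0.589 ± 0.0957 CPM per kb, the last being the lowest of all 34. XBP1's transcript stood above all 3 sensors, at 57.6 ± 2.68 CPM per kb. Lengths that count every annotated exon understate genes with long rare isoforms, such as Sec61b, which moved from rank 15 to rank 9 when the longest principal transcript was used, a choice made after the data were seen. With that length Pdia3 still ranked 1 and Eif2ak3 34. Sec61b (134), Pdia6 (118), Sec61a1 (117) and Ssr2 (107) then also exceeded 100 CPM per kb in WT. Sec61b, Sec61a1 and Ssr2 are translocon genes, so which genes fill the upper end depends on the length used. Os9 then stood level with Hsp90b1, both at 215 CPM per kb.

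**Figure D2:**
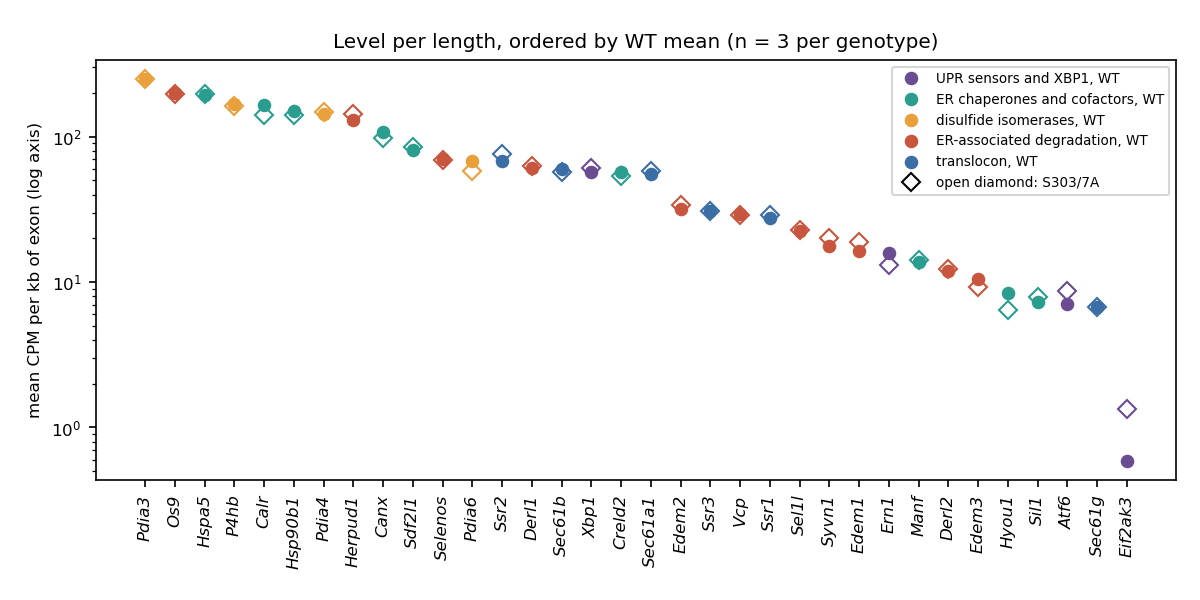
Mean CPM per kb of exon on a log axis for the 34 genes, ordered by the WT mean, with filled points for WT, open diamonds for S303/7A (n = 3 each) and colour for the role. Folding enzymes fill most of the upper end, and the sensor gene Eif2ak3 is the lowest, at 0.589 in WT and 1.35 in S303/7A.

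Among the sensors and XBP1, 0 of 4 genes were called, and before adjustment 2 had p under 0.05, both higher in S303/7A. Eif2ak3 encodes PERK, the kinase that slows translation by phosphorylating eIF2α (chromosome 6, 70844515 to 70905245, GRCm38). Its level was 3.14, 4.21 and 3.31 CPM across WT 1, 2 and 3 and 4.78, 4.69 and 15 CPM across S303/7A 5, 6 and 7. The groups did not overlap, but S303/7A 7 stood far above the other 2 mutant libraries, which lay just over the WT range. The log2 fold was 1.20 ± 0.48 (SE), and edgeR's quasi-likelihood test returned 0.486 as the adjusted p. Without S303/7A 7 the log2 fold was 0.41. An opposite-strand gene, Gm43292, overlaps 8.0% of the exonic bases of Eif2ak3. The strand setting of the counting is not given in the sources used here, so part of these reads could belong to Gm43292. That gene was itself counted at 1.03, 0.846 and 1.03 CPM across WT and 0.676, 0.719 and 0.343 CPM across S303/7A. Its part in the fold of Eif2ak3 was not tested. Opposite-strand genes also overlap 12.8% of the exonic bases of Ssr2 (Gm10704), 10.3% of Hsp90b1 (1810014B01Rik), 8.2% of Sec61a1 (Gm44170, with 0 counts) and 7.3% of Vcp (1700022I11Rik). In 6 further genes of the 34 no single opposite-strand gene overlaps more than 4.7%.

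Atf6, a transcription factor held in the ER membrane and freed by proteolysis in the Golgi, was at 71.5, 66.2 and 56.7 CPM across WT and 83.6, 85.6 and 69.9 CPM across S303/7A. Mutant libraries 5 and 6 were above every WT library, while S303/7A 7 lay below WT 1. Its log2 fold was 0.30 ± 0.12 (SE), and edgeR's quasi-likelihood test returned 0.498 as the adjusted p. A called gene lay within 5 Mb of 6 of the 34 genes (17.6%), against 19.3% of the 16081 tested genes with 1 position. Atf6 (chromosome 1, 170704674 to 170867771) lies 90846 bases from Fcgr2b, an inhibitory Fc receptor gene that was called higher (log2 fold 1.65), and 8 called genes lie within 5 Mb of it. No other gene among the 34 had more than 3. Whether the fold of Atf6 belongs to that stretch of the chromosome was not tested.

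Ern1 encodes IRE1, the kinase and nuclease that splices Xbp1 mRNA. Its level was 145, 147 and 95.7 CPM across WT and 109, 109 and 106 CPM across S303/7A. WT 3 lay below every mutant library and the other 2 WT libraries above them, so the groups overlapped. The log2 fold of -0.26 ± 0.16 (SE) was -0.17 without WT 1 or without WT 2 and -0.43 without WT 3, where its adjusted p was 0.148, the lowest of any of the 34 genes in any fit tried. Xbp1, the target of that splicing, was at 181, 182 and 197 CPM across WT and 215, 197 and 179 CPM across S303/7A, with overlap and a log2 fold of 0.08 ± 0.08. Counts per gene do not separate spliced from unspliced Xbp1, so they give total transcript and not the activity of IRE1.

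**Figure D3:**
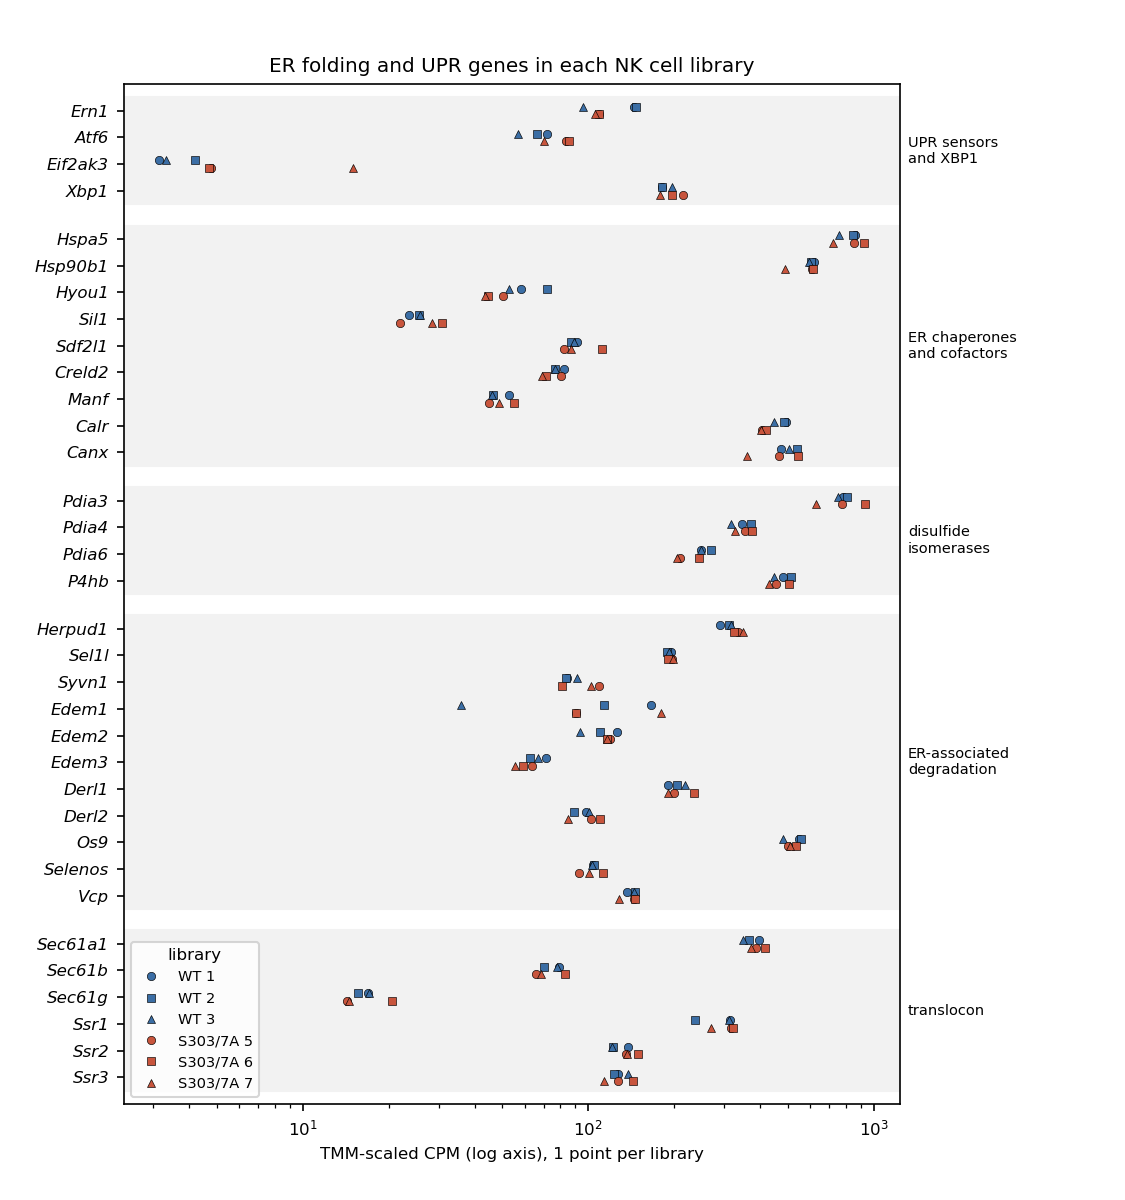
TMM-scaled CPM of the 34 genes in each of the 6 libraries on a log axis, grouped by role, with WT in blue and S303/7A in red and a marker shape for each library. The points of most genes lie close together, Edem1 runs from 35.8 to 180.1 CPM, and S303/7A 7 stands apart for Eif2ak3 at 15 CPM.

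The 9 chaperones and cofactors gave 0 calls and a median log2 fold of -0.09, with 4 above 0 and 5 below. Hspa5 encodes BiP, the HSP70 of the ER lumen that also holds the sensors inactive, and its transcript is the usual readout of the UPR. It was measured at 861, 850.4 and 759 CPM across WT and at 856, 923 and 719.9 CPM across S303/7A. The highest and the lowest library were both mutant, and the log2 fold was 0.02 ± 0.10 (SE), with a 95% interval from -0.22 to 0.25. This interval corresponds to folds from 0.858 to 1.19. Hsp90b1 encodes GRP94, the HSP90 of the ER, which folds integrins and Toll-like receptors. It was at 619, 605 and 595 CPM across WT and 608, 612 and 489 CPM across S303/7A, with S303/7A 7 alone below the WT range. Its log2 fold was -0.09 ± 0.09.

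Calr, calreticulin, a lectin chaperone that also serves in loading of MHC class I, was at 492, 484 and 447 CPM across WT and 408, 419 and 404 CPM across S303/7A. All mutant libraries lay below all WT libraries. The log2 fold was -0.21 ± 0.06 (SE), equal to a fold of 0.864, and the adjusted p from edgeR's quasi-likelihood test, 0.312, was the lowest of the 34 genes. With 1 library left out at a time, the log2 fold ranged from -0.25 to -0.19. The nearest called gene was Prdx2, a peroxiredoxin, 122653 bases away on chromosome 8 and called higher (log2 fold 0.72); its part in the fold of Calr was not tested. Canx, the membrane-bound counterpart calnexin, was at 474, 539.6 and 504 CPM across WT and 467, 543 and 360.1 CPM across S303/7A, with overlap. Its log2 fold of -0.15 ± 0.14 was -0.01 without S303/7A 7 and -0.29 without S303/7A 6.

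Hyou1, the HSP110 of the ER, which exchanges nucleotide on BiP, was at 58.4, 71.5 and 52.7 CPM across WT and 50.3, 44.7 and 43.5 CPM across S303/7A. The groups did not overlap, though WT 3 and S303/7A 5 lay close together. The log2 fold was -0.40 ± 0.13 (SE), equal to a fold of 0.759, and edgeR's quasi-likelihood test returned 0.399 as the adjusted p, where DESeq2 gave 0.160. Sil1, which does the same exchange on BiP, was at 22.0 to 30.8 CPM over the 6 libraries with a log2 fold of 0.12 ± 0.15, so the 2 exchange factors had folds of opposite sign. Sdf2l1, a BiP-complex component, was at 91.4, 87.4 and 89.1 CPM across WT and 82.1, 112 and 86.8 CPM across S303/7A. S303/7A 6 stood above the WT range and the other 2 mutant libraries below it, and the log2 fold was 0.07 ± 0.12. Creld2 and Manf, secreted products of ER stress, had log2 folds of -0.09 ± 0.09 and 0.04 ± 0.11.

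Of the 4 disulfide isomerases 0 were called. Pdia6, which also acts on IRE1 signalling, was at 249, 270.3 and 248 CPM across WT and 209, 244 and 204 CPM across S303/7A. S303/7A 6 came within 4 CPM of the lowest WT library without overlapping. The log2 fold was -0.22 ± 0.09 (SE), and edgeR's quasi-likelihood test returned 0.478 as the adjusted p. Without S303/7A 6 the log2 fold was -0.31, with an adjusted p of 0.257 from the same test. Without S303/7A 7 the log2 fold was -0.18. Pdia3, which works on glycoproteins with calnexin and calreticulin, had a mean of 781 ± 28.8 CPM across WT and 779 ± 149.9 in S303/7A (SD, n = 3). Its mutant libraries spread from 631 to 931 CPM around nearly the same mean. Pdia4 was at 346, 371 and 317 CPM across WT and 355, 375 and 327 CPM across S303/7A (0.03 ± 0.08). P4hb, the archetypal protein disulfide isomerase, was at 481, 513 and 449.5 CPM across WT and 456, 507 and 431 CPM across S303/7A (-0.05 ± 0.08). Neither showed a shift beyond its spread.

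ER-associated degradation gave 0 calls and 0 genes with an unadjusted p under 0.05 among its 11 genes, in edgeR's quasi-likelihood test. Herpud1, an adaptor that gathers the retrotranslocation complex, was at 289, 312 and 316 CPM across WT and 334, 325 and 349.6 CPM across S303/7A. The mutant libraries were all higher, by little: the log2 fold was 0.14 ± 0.06 (SE), a fold of 1.10, with an adjusted p of 0.564. Sel1l, the partner of the ubiquitin ligase HRD1, was at 195, 189 and 192 CPM across WT and 197, 191 and 198 CPM across S303/7A. It was the steadiest of the 34 genes, with a standard deviation of 0.03 on the log2 scale between libraries of a genotype and 0.158% of tested genes spread less. Syvn1, which encodes HRD1 itself, was at 84.1, 83.6 and 91.1 CPM across WT and 109, 81.1 and 102 CPM across S303/7A (0.18 ± 0.12). S303/7A 6 lay below every WT library. The log2 fold was 0.29 without that mutant library and 0.09 without S303/7A 5.

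The EDEM proteins act on the glycans of misfolded clients. Edem1 was the most variable of the 34 genes, at 166, 114 and 35.8 CPM across WT and 90.9, 90.9 and 180.1 CPM across S303/7A. WT 3 was the lowest library and S303/7A 7 the highest, and the standard deviation within a genotype was 0.91 on the log2 scale, where the median was 0.13 for the 34 genes and 0.26 over all tested genes. The log2 fold of 0.20 ± 0.53 (SE) ranged from -0.21 without WT 3 or without S303/7A 7 to 0.69 without WT 1. Edem2 (0.09 ± 0.11) and Edem3 (-0.17 ± 0.09) did not share that spread, with 93.4 to 126 CPM and 55.4 to 71.4 CPM over the 6 libraries. An order with WT 3 lowest in WT and S303/7A 7 highest of all recurred in 4 of the 6 ER genes of widest spread outside the 34 (mean of at least 10 CPM), which were picked after their values were seen: Nploc4, Herpud2, Tmed2 and Sec63. Txndc11 was lowest in WT 3 but highest in WT 1, and Erlec1 was lowest in S303/7A 7. Nploc4, a cofactor of the p97 ATPase, was at 47.1, 32.6 and 16.2 CPM across WT and 23.1, 18.6 and 103 CPM across S303/7A. Herpud2, a relative of Herpud1, was at 60.5, 50.2 and 20.9 CPM across WT and 31.7, 23.5 and 101 CPM across S303/7A. Tmed2, a cargo receptor of transport vesicles, was at 53.5, 40.2 and 19.8 CPM across WT and 30.2, 23.2 and 71.7 CPM across S303/7A. The NK cell factor gene Eomes had the same order, at 476, 316 and 148 CPM across WT and 180.5, 140 and 717 CPM across S303/7A. In these 4 genes WT 1 was the highest WT library and S303/7A 7 the highest of all, so differences between mice of 1 genotype exceeded the difference between genotypes; their cause was not tested.

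Vcp encodes p97, the ATPase that pulls proteins out of the membrane. It was at 137, 146 and 145 CPM across WT and 145, 146 and 128 CPM across S303/7A, a log2 fold of -0.03 ± 0.08 (SE). Its count is uncertain, because Vcp-rs shares 99.05% of 2421 aligned bases with it and drew more counts than Vcp, 61407 against 45802 over the 6 libraries. The sum of both was 324, 332 and 334 CPM across WT and 349.7, 340.3 and 311 CPM across S303/7A, again with overlap. The remaining degradation genes, Derl1, Derl2, Os9 and Selenos, had log2 folds from -0.03 to 0.04. Derl1 and Derl2 form part of the exit channel, and Os9 is a lectin that delivers glycoproteins to it.

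Translocon genes gave 0 calls among 6, log2 folds from -0.06 to 0.15 and no gene with groups apart. Sec61a1, the pore-forming subunit, was at 396, 366 and 348 CPM across WT and 386, 418 and 372 CPM across S303/7A (0.08 ± 0.07). Its small partners had log2 folds of -0.06 ± 0.11 (Sec61b) and -0.01 ± 0.18 (Sec61g). The subunits of the translocon-associated complex had log2 folds of 0.08 ± 0.12 (Ssr1), 0.15 ± 0.08 (Ssr2) and -0.01 ± 0.10 (Ssr3). Sec61g has 4 and Sec61b 3 near-identical copies in the annotation, with at most 335 counts each against 5359 and 24102 for the genes themselves. Ssr2 shares 98.6% of 366 bases with Rtraf, so reads between them are uncertain.

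Summed by role, no group of genes separated the genotypes. Chaperones summed to 2595 to 2786 CPM across WT and 2249 to 2811 CPM across S303/7A, isomerases to 1766 to 1963 and 1593 to 2057, degradation genes to 1845 to 2009 and 1955 to 2017, translocon genes to 935 to 1069.6 and 976 to 1137, and the sensors with XBP1 to 353 to 401 and 369.5 to 412. What differed more, for chaperones, isomerases and translocon genes, was the pair of mutant libraries 6 and 7. S303/7A 6 was the highest of the 3 mutant libraries for 24 of the 34 genes, against 35% of all tested genes, and S303/7A 7 the lowest for 21 of 34, against 35.1%. The summed chaperones were at 104% of the WT mean in S303/7A 6 and at 82.9% in S303/7A 7, and the isomerases at 110% and 85.5%. Translocon genes were at 113% and 97%, and the sensors with XBP1 at 103% and 96.1%. Degradation genes did not show the gap, at 103% and 104%. In WT the lowest library was WT 3 for 17 of the 34 genes, against 36.2% of tested genes.

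**Figure D4:**
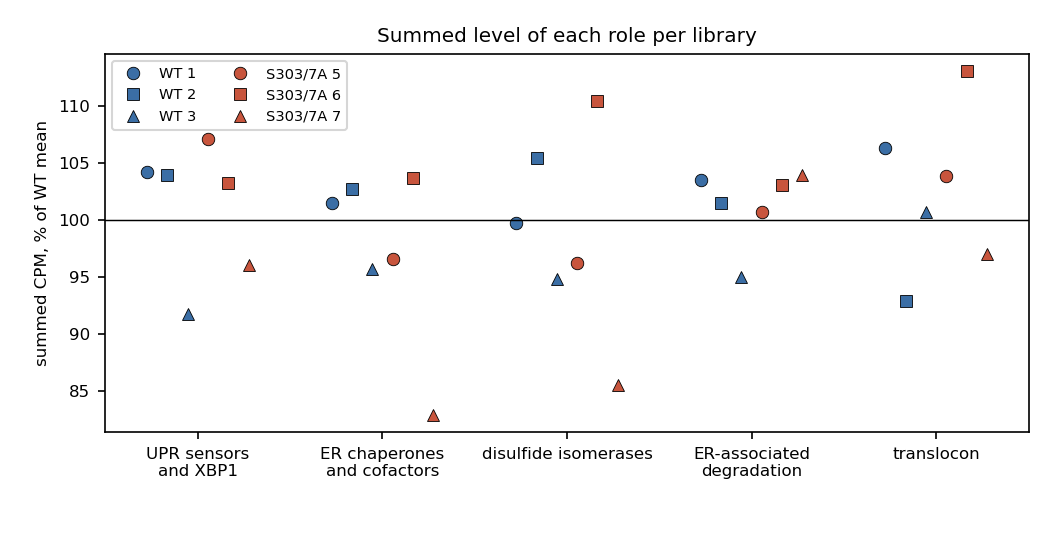
Summed CPM of each role in each library as a percentage of the WT mean, with WT in blue and S303/7A in red. The genotypes overlap in all 5 roles, and S303/7A 7 is the lowest library for chaperones (82.9%) and isomerases (85.5%), where S303/7A 6 is the highest.

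The genes with the ER stress response element can be read beside those without it, as a description. Of the 7 with it, 5 had log2 folds below 0 and 2 above (Hspa5 and Syvn1), with a median of -0.09 and a range from -0.22 to 0.18. Among all tested genes 51.7% of folds were above 0. Without S303/7A 7, Hsp90b1 was at 0.01 and Canx at -0.01. Creld2 (-0.05) and Pdia6 (-0.18) stayed below 0 in that fit, and Calr was at most -0.19 with any 1 library left out. Of the 20 with a window and no match, 10 had folds above 0 and 10 below, the median being 0.01. The 7 genes with no window had 6 folds above 0 and 1 below, with a median of 0.08. Of the 3 genes whose mutant libraries all lay below WT, Calr and Pdia6 hold the element and Hyou1 had no window. On that side 8.37% of all tested genes did not overlap. Herpud1, with the second form, was on the higher side, where 7.64% of all tested genes did not overlap.

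The rest of the pathway was taken from 7 further lists of 133 genes, of which 129 were tested. In edgeR's quasi-likelihood test 0 were called, while before adjustment 10 genes had p under 0.05, 5 in each direction, or 7.75% against 9.68% of all tested genes. Their median log2 fold was 0, with 65 above 0 and 64 below. By list, 0 of 18 were called among UPR transcription factors and PERK outputs, 0 of 19 among other ER chaperones and J-proteins, 0 of 14 among other disulfide and oxidation enzymes, 0 of 16 in the glucosidase cycle and oligosaccharyltransferase, 0 of 24 in other degradation genes, 0 of 19 in other translocon and signal peptide genes, and 0 of 19 in ER exit and retention.

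Downstream of PERK, Atf4, the factor translated when eIF2α is phosphorylated, was at 91.0 ± 4.37 CPM across WT and 82.0 ± 5.58 in S303/7A (SD, n = 3), a log2 fold of -0.15 ± 0.08 (SE). Ddit3, the factor CHOP of prolonged ER stress, was at 54.4 ± 2.95 and 56.6 ± 7.26 CPM (0.06 ± 0.11). Transcripts raised through XBP1 and ATF6 were as close: Dnajb9, a J-protein that restrains IRE1, was at 37.3 ± 0.379 and 38.8 ± 2.54 CPM (0.06 ± 0.10), and Dnajc3, a J-protein that works with BiP, at 220.2 ± 15.5 and 249.7 ± 22.9 CPM (0.18 ± 0.09). Ero1l, the oxidase that recharges disulfide isomerases, was at 51.8 ± 6.54 and 46.3 ± 2.89 CPM (-0.16 ± 0.12). None of these 5 genes passed the test, and the libraries of the genotypes overlapped for each.

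A few of these further genes came closer to the threshold, and they are named because DESeq2 called them. DESeq2 called 3 of these 129 genes (2.33%), against 2.65% of the 16475 genes to which it gave an adjusted p. Dad1, a subunit of the oligosaccharyltransferase, which adds N-glycans, was at 246, 254 and 272 CPM across WT and 197, 204 and 182 CPM across S303/7A. All mutant libraries lay below all WT libraries, with a log2 fold of -0.40 ± 0.07 (SE), where edgeR's quasi-likelihood test returned 0.105 as the adjusted p and DESeq2 0.000631. Nck1, an adaptor that binds PERK and also joins receptor signalling to actin, was at 91.1, 142 and 102 CPM across WT and 182, 182 and 169 CPM across S303/7A (0.67 ± 0.16), with an adjusted p of 0.215 in edgeR and 0.00318 in DESeq2. Srp9, a protein of the signal recognition particle, was at 52.4, 32.0 and 52.7 CPM across WT and 68.3, 81.1 and 66.8 CPM across S303/7A (0.66 ± 0.20), with 0.345 and 0.0379. The groups stood apart for each of the 3, as they did for 16.0% of all tested genes.

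**Figure D5:**
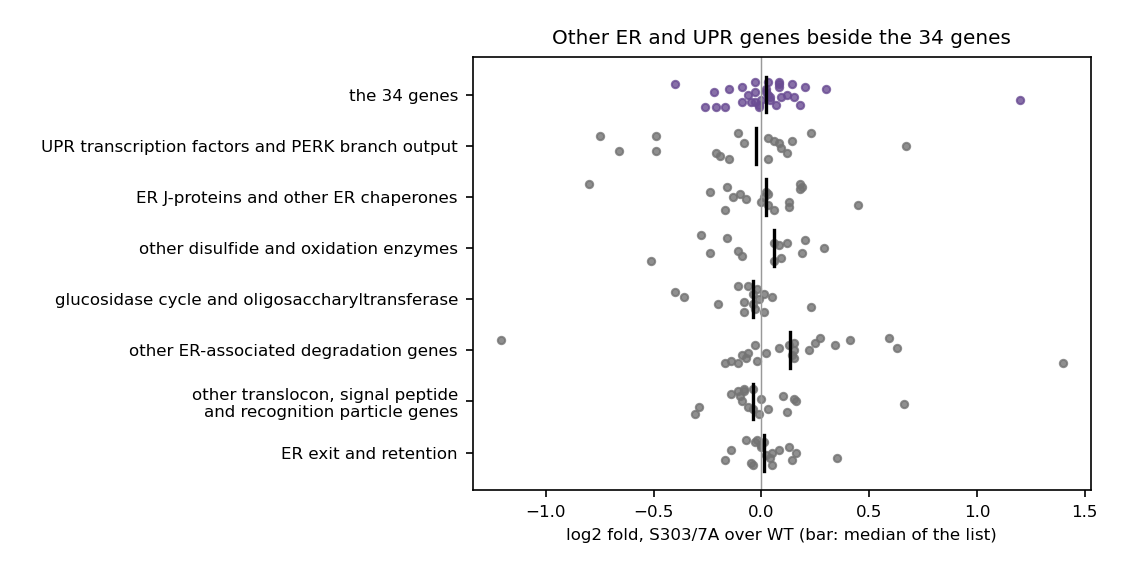
Log2 fold of S303/7A over WT for the 34 genes (purple) and for the tested genes of 7 further ER and UPR lists (grey), with a bar at each list's median. Medians lie close to 0, from -0.04 to 0.14, and the points of widest value are Derl3 and Erlec1 among other degradation genes and Eif2ak3 among the 34.

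Plasma cells, the textbook heavy secretors of the spleen, carry ER transcripts at high level. Their 16 markers summed to 711 to 1019 CPM across WT and 840.1 to 1103 CPM across S303/7A, with 0 of 12 tested markers called. Most of that sum came from Ighm, Txndc5 and Prdm1, and Igkc was at 6.20 to 57.3 CPM, highest in S303/7A 7. Of the other markers, Tnfrsf17 was at 0 in 4 libraries and at most 0.15 CPM, Ighg1 at 0 in all 6, Mzb1 at most 0.557 CPM and Jchain at 0.255 to 7.58 CPM. B cell markers summed to 24.6 to 140 CPM across WT and 43.3 to 97.5 CPM across S303/7A. The part of either cell type in the folds was not tested.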

How the data were processed

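RNA-seq of sorted splenic NK cells was analysed in 6 libraries, 3 per genotype. Per the labels' protocols, each library came from 1 mouse and used the SMART-seq HT kit for preparation. The tools named are Trimmomatic, featureCounts, STAR and DESeq2, and the build is GRCm38 (mm10), per the submitters' processing notes; no version, annotation release or strand setting was found there. Raw counts per gene name, as the authors deposited them, were used as they stand; their normalized values were not used here. Within a genotype, library pairs differed by a chi-square per gene of 26.5 to 82, so none was counted as a repeat. Replicate numbers are not shared between genotypes.

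The fit used R 4.3.3 and edgeR 4.0.16: filterByExpr (minimum count 10, minimum total 15), TMM, the quasi-likelihood test and Benjamini-Hochberg adjustment over 16480 genes. Standard errors are Wald-type. Spread within a genotype is the pooled SD of log2(CPM + 0.01). Alternatives were median-of-ratios scaling, library totals, no filter, a minimum count of 50, DESeq2 1.42.0, limma-voom 3.58.1, a robust fit, thinning to equal totals, and leaving out each library. The test was checked on simulated counts of 15879 genes, with 9 false calls.

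Members and lists were chosen with earlier results of these data known. Every library's value is given for members with an unadjusted p under 0.05 and 15 fixed members; others named in full were chosen after their values were seen. Positions and exon lengths are from GENCODE M21, which held 1 gene for 53186 of the 55291 names. Copies were transcripts sharing at least 95% over 200 bases. No protein sequences were used here.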

Additional observations from a re-analysis of the deposited data

How the results depend on the processing

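Under all 14 alternatives 0 of the 34 genes were called higher and 0 lower. The fits on scaling, filter, tool and depth kept the sign of 269 of 272 log2 folds of these genes; with library totals Hspa5 (-0.01), Sel1l (-0.0029) and Derl1 (-0.0046) changed sign. With 1 library left out 175 of 204 signs held. The folds that crossed 0 ranged over the 6 such fits from -0.06 to 0.11 for Hspa5, -0.15 to 0.01 for Hsp90b1, -0.08 to 0.16 for Sdf2l1, -0.05 to 0.1 for Manf, -0.15 to 0.12 for Pdia3, -0.02 to 0.08 for Pdia4, -0.07 to 0.08 for Derl1, -0.04 to 0.14 for Derl2, -0.21 to 0.69 for Edem1, -0.01 to 0.2 for Edem2, -0.11 to 0.04 for Selenos, -0.06 to 0.02 for Vcp, -0.17 to 0.0038 for Sec61b, -0.2 to 0.08 for Sec61g, -0.05 to 0.15 for Ssr1 and -0.1 to 0.06 for Ssr3. The median log2 fold of the 34 genes ranged from -0.06 without S303/7A 6 to 0.07 without S303/7A 7. Of the further ER lists, no filter called Nck1 (1 higher) and Dad1 (1 lower), and DESeq2 Nck1 and Srp9 (2 higher) and Dad1 (1 lower). Over all genes, against 22 higher and 38 lower, no filter gave 54 and 117, DESeq2 154 and 283, and limma-voom 22 lower. Leaving out 1 library gave 1 to 38 higher and 4 to 21 lower, with the fewest without WT 2. No scaling moved the median of all genes by over 0.1. The cause of these changes was not tested. No paired analysis was possible because the genotypes share no replicate numbers. Eif2ak3 rested on the fewest counts of the 34 genes, 198 to 700, with a within-genotype SD of 0.7 on the log2 scale.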
